A study of Mus musculus with 4 samples.

Results

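Enkur, Mns1, Nme7, Spaca9 and Ribc2 encode proteins found inside the doublet microtubules of motile cilia and of the sperm tail. RFX2 binding at their promoters was read from the 3 deposited peak lists of a testis ChIP-seq experiment (chromatin immunoprecipitation followed by sequencing). These 5 genes were taken by name out of 21938 annotated protein-coding genes. No peak entered that rule, but earlier results of these data were known when the genes were chosen. A promoter reached from 1000 bp upstream to 500 bp downstream of any annotated transcription start site (TSS), and a promoter peak overlapped it by at least 1 bp. The chromatin came from decapsulated testes of 2 independent wild type mice of a mixed C57BL/6, 129/Sv and FVB/N background, at postnatal day 29 to 30 per the labels. The study's own text gives a younger age and dissociated germ cells, and the lists do not settle which applies. That text describes 2 replicates without saying that each came from a single mouse. The replicates are called animals here. Each animal gave 1 library made with an antibody against RFX2 and 1 input, chromatin sequenced without antibody, which entered only through the authors' peak calling. The whole testis holds many cell types, peak lists carry no expression values, and the tissue label was therefore not checked against marker genes.

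The axoneme, the core of a cilium or flagellum, is a ring of doublet microtubules, each made of a complete and an incomplete tubule. Microtubule inner proteins line the inside of these tubules and are known to stabilise them against the bending of the beating tail. RFX factors are known activators of genes for cilia and bind the X-box, an inverted repeat written here as the palindrome GTTGCCATGGCAAC. Mns1 is a coiled-coil protein required for sperm tails, and Ribc2 belongs to the RIB43A-type coiled-coil proteins of the doublet wall. Enkur encodes enkurin, a calmodulin-binding protein of the flagellum. Nme7 belongs to the nucleoside diphosphate kinase family. Spaca9 was named for its link to the acrosome of the sperm head and is also found within the doublets.

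The 5 sequences below are 200 bp of GRCm38.p6 centred on the summit of the combined peak, and for Mns1, which had no such peak, on the middle of the overlap of its replicate peaks. Each runs 5′ to 3′ in the direction of the named gene. They are shown because the position and the words of each differ from gene to gene. Capitals mark an X-box with at most 3 mismatches, the X-box arm GTTGCC on either strand, or GTTGC followed by GCAAC after 3 to 5 bases. The windows are chr2:21205272-21205471 (Enkur, minus strand), chr9:72438414-72438613 (Mns1, plus strand), chr1:164307493-164307692 (Nme7, plus strand), chr2:28700048-28700247 (Spaca9, minus strand) and chr15:85131990-85132189 (Ribc2, plus strand).
Enkur: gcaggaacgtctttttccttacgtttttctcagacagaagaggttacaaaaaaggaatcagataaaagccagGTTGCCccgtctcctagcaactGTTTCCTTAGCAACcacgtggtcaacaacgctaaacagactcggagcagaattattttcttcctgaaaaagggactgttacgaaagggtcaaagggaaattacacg
Mns1: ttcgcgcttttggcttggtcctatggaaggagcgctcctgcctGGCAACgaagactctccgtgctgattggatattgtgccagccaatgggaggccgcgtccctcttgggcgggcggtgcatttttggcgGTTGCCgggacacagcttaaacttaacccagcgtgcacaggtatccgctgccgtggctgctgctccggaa
Nme7: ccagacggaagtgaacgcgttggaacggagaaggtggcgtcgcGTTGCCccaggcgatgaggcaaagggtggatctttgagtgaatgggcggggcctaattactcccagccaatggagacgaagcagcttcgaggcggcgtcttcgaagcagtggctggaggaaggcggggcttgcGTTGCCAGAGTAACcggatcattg
Spaca9: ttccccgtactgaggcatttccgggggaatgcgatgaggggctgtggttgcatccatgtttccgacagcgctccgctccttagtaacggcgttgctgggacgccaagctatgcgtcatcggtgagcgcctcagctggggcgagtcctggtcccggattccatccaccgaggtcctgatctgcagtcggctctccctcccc
Ribc2: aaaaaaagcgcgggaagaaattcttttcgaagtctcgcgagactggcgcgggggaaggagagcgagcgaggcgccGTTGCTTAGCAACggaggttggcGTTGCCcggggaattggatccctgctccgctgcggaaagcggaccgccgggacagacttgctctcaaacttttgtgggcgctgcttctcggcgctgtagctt

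All 5 genes had a promoter peak in each replicate list, and 4 of the 5 had one in the combined list, the exception being Mns1. Each gene had a single promoter peak per list in which it had any. Over all protein-coding genes, 14% had a promoter peak in replicate 1, 11.3% in replicate 2, 9.05% in both and 5.26% in the combined list. The peaks of the 2 animals overlapped each other at all 5 genes, over 325 bp at Mns1, 724 bp at Ribc2, 754 bp at Spaca9, 892 bp at Nme7 and 1250 bp at Enkur. At Enkur, Nme7, Spaca9 and Ribc2 the replicate 2 peak lay wholly within that of replicate 1. Among all 1985 genes with a promoter peak in both animals, the peaks overlapped each other at 97%, and a replicate 2 peak lay wholly within one of replicate 1 at 57.5%, so overlap at all 5 genes was ordinary among such genes. As the genes were chosen with earlier results of these data known, no test over them was made, and 2 animals allow no estimate of the spread of a count. The replicate lists held 39825 and 21274 peaks and the combined list 2726, and the number of reads behind each is unknown.

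**Figure D1:**
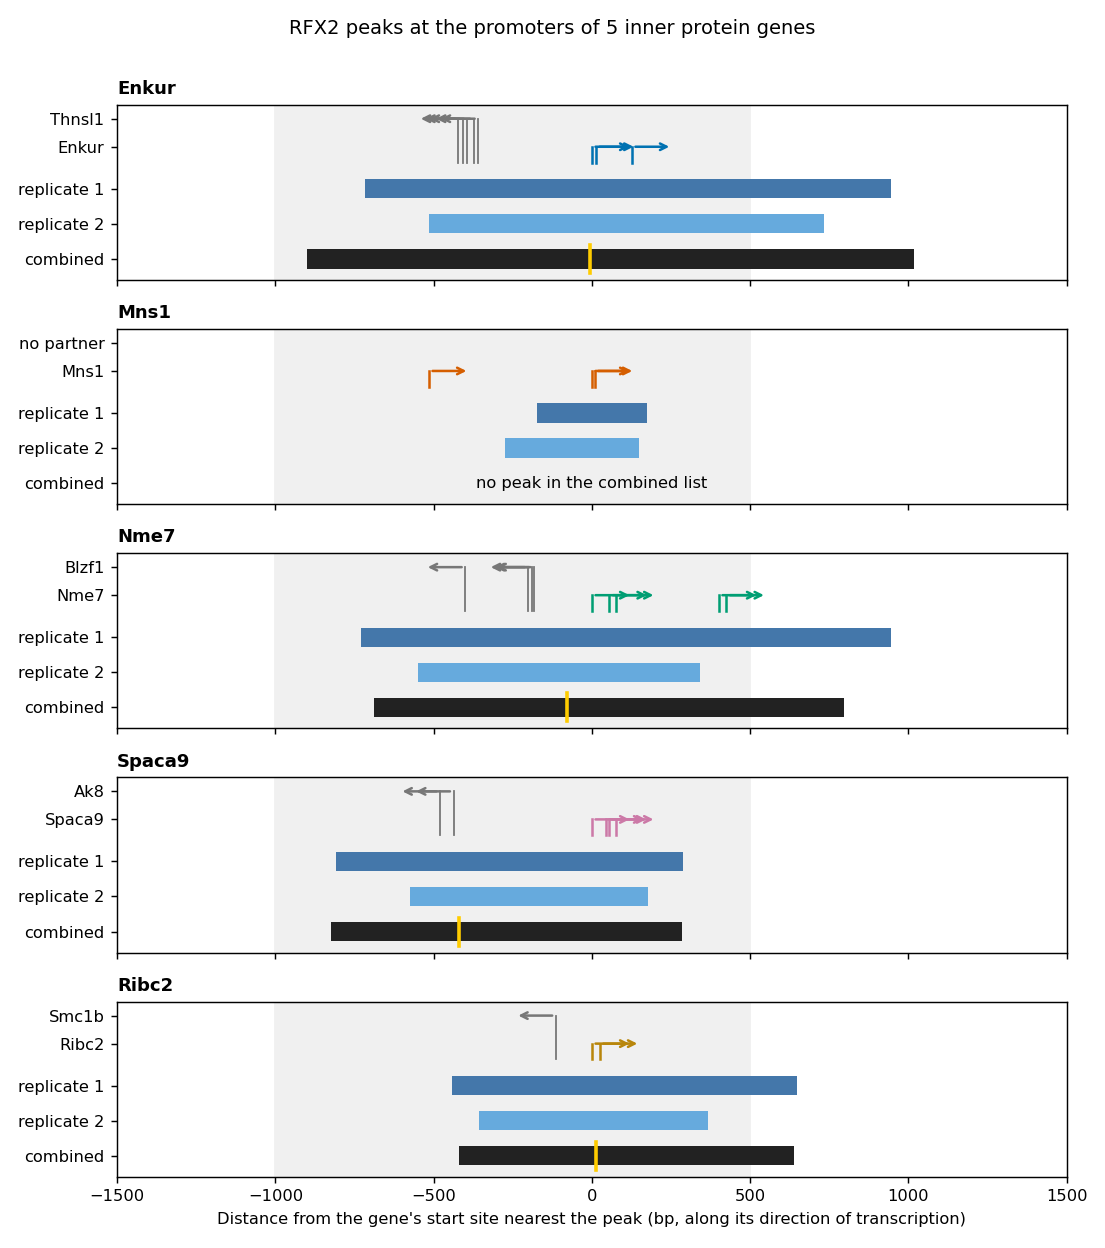
Peaks of the 3 lists at the 5 promoters, with the distance in bp from the start site of the gene nearest to the peak, along its direction of transcription; grey shading is the promoter of that start site, coloured arrows are start sites of the gene, grey arrows those of the divergent partner, and the yellow line is the combined summit. Peaks of both animals cover the start site at distance 0 in all 5 genes, whereas the Mns1 start further upstream and some Nme7 starts lie outside them, and at Spaca9 the summit lies 421 bp upstream, beside the partner Ak8.

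The 5 genes spanned a wide range of peak strength, and their order was the same in both animals. Strength is the value that the authors' software gave each peak, on a −log10 scale, which was ranked within each list. Sizes are not on a common scale between lists, so which animal scored higher is given beside the same for all genes. The replicate 1 scores were 404 at Enkur, 169 at Nme7, 85.7 at Ribc2, 33 at Spaca9 and 17.8 at Mns1. In replicate 2 they were 179 at Enkur, 105 at Nme7, 80.2 at Ribc2, 34.3 at Spaca9 and 21.7 at Mns1. Thus Enkur stood highest and Mns1 lowest in each animal, with the same 3 genes in the same order between them. Among all genes with a promoter peak, Enkur ranked 2 of 3066 in replicate 1 and 9 of 2474 in replicate 2, whereas Mns1 ranked 1515 and 920.

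Relative to other genes, Ribc2, Spaca9 and Mns1 scored low in replicate 1 for their score in replicate 2. Of the genes with a promoter peak in both, 87.8% scored higher in replicate 1. The score of replicate 1 divided by that of replicate 2 had a median of 1.93 over the 1985 genes with a promoter peak in both, and the middle 80% of these genes ran from 0.913 to 3.65. The ratio was 2.26 at Enkur and 1.6 at Nme7. It was 1.07 at Ribc2, 0.96 at Spaca9 and 0.819 at Mns1, at percentiles 14.9, 11.2 and 7.1 of all ratios.

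**Figure D2:**
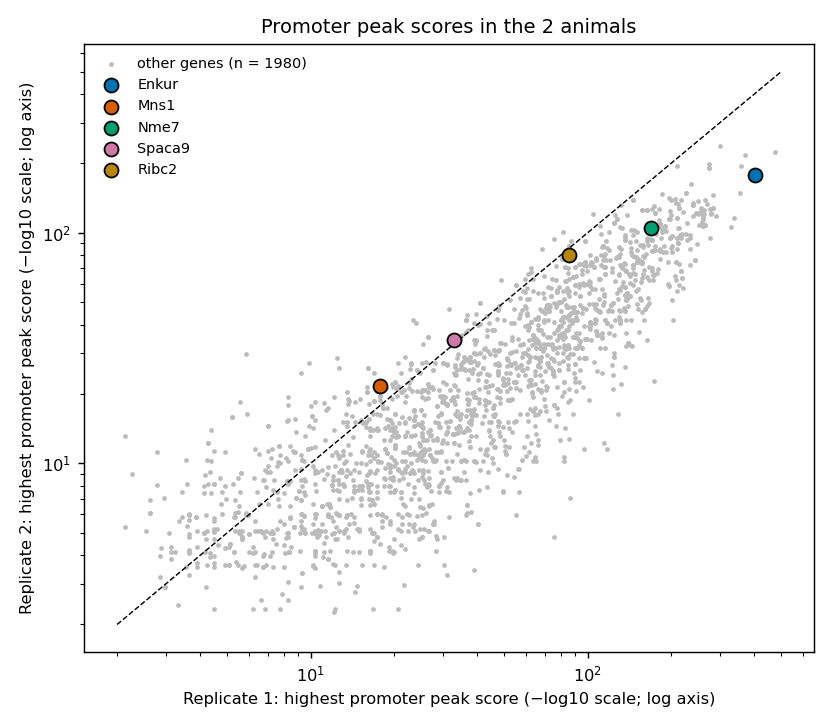
Highest promoter peak score of each gene in replicate 1 (x axis) and replicate 2 (y axis), both −log10 values on log axes, for the 1985 genes with a promoter peak in both; the dashed line marks equal scores. Enkur and Nme7 lie below the line, Enkur near the upper end of both axes, and Ribc2, Spaca9 and Mns1 lie close to the line or above it.

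Enkur lies on chromosome 2 from 21180731 to 21205365 on the minus strand (ENSMUSG00000026679) and has 3 annotated start sites. Its combined peak, from 21204346 to 21206264, was 1919 bp wide, ranked 6 of 2726 by −log10 p (415) and showed a 29.5-fold enrichment over local background. The summit at 21205372 fell 7 bp upstream of the start of the protein-coding transcript, outside any annotated exon. By fold enrichment the same peak ranked only 249.

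Nme7 lies on chromosome 1 from 164304121 to 164437725 on the plus strand (ENSMUSG00000026575), with 9 annotated start sites spread over its length. The combined peak ran from 164306984 to 164308468, reached a −log10 p of 238, which placed it at rank 134, and was enriched 23.7-fold. Its summit at 164307593 was 79 bp upstream of the start at 164307672 used by a protein-coding transcript. A longer transcript annotated as a target of nonsense-mediated decay starts further upstream, and within it the summit falls in a UTR exon. The promoters of starts more than 5 kb further inside the gene met no peak.

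Ribc2, on chromosome 15 from 85132078 to 85144570 on the plus strand (ENSMUSG00000022431), had a combined peak from 85131659 to 85132716 at rank 596 (−log10 p 137). Its summit at 85132090 was 12 bp downstream of the first start, in the 5′ UTR. The fold of 12.0 placed it only at rank 2284 by that measure, below the median of 15 over the 1003 combined promoter peaks.

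Spaca9, on chromosome 2 from 28692080 to 28699727 on the minus strand (ENSMUSG00000026809), had a combined peak from 28699442 to 28700552. Its −log10 p was 62.7, which is rank 1855 and the lowest of the 4. Its fold was 13.1, above the 12.0 of Ribc2. The summit at 28700148 was 421 bp upstream of the nearest Spaca9 start and lay between genes. Over the strongest promoter peak of each of the 1153 genes bound in the combined list, the median distance between summit and nearest start was 70 bp, with quartiles of 23 and 191 bp. Thus Enkur and Ribc2 were closer than the lower quartile, Nme7 was near the median, and Spaca9 was beyond the upper quartile.

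Mns1 lies on chromosome 9 from 72438011 to 72462025 on the plus strand (ENSMUSG00000032221), with 3 start sites. The replicate 1 peak ran from 72438352 to 72438699 and the replicate 2 peak from 72438253 to 72438676, so that they were 348 and 424 bp wide and the narrowest of the 5 genes in each list. Their centres were 1 and 62 bp upstream of the start at 72438526, which lies in the first intron of a transcript that begins further upstream. Mns1 ranked 4927 of all replicate 1 peaks and 1559 of all replicate 2 peaks. Of all genes with a promoter peak in both animals, 57.3% had one in the combined list. Of the 914 genes with scores at least as high as those of Mns1 in both animals, 98.4% had a combined promoter peak, and of the 520 with lower scores in both, 0% did. Among genes within 20% of the Mns1 score in replicate 1 the share was 2 of 210 (0.952%), and within 20% of its score in replicate 2 it was 181 of 249 (72.7%). Thus genes near the Mns1 score were mostly absent from the combined list by replicate 1 and mostly present by replicate 2. The combined list is taken to share reads with both replicates, so these shares are not independent of the scores. Why Mns1 had no combined peak was not tested.

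**Figure D3:**
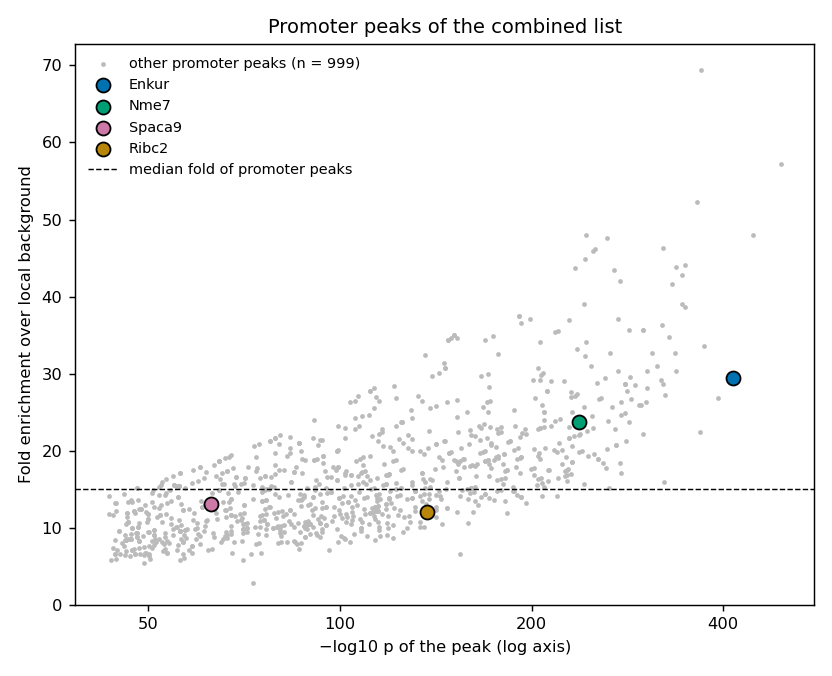
Fold enrichment over local background against −log10 p (log axis) for the 1003 combined peaks that met a promoter; the dashed line is the median fold of 15. Enkur and Nme7 lie above the line with high −log10 p, Spaca9 and Ribc2 lie below it, and Mns1 is absent because it had no peak in this list.

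The 4 genes with a combined peak each faced another gene transcribed in the opposite direction, and Mns1 did not. A divergent partner was defined as a gene on the other strand whose start lay upstream within 1000 bp. Such a partner was found for 18.3% of all protein-coding genes and for 36.5% of those with a combined promoter peak. Conversely, 10.5% of genes with a partner and 4.08% of genes without one had a combined promoter peak. All 4 partners are protein-coding, and each met the same peak as its neighbour in all 3 lists. The promoters of such a pair overlap over most of their length, so this sharing follows largely from the definition. For the same reason a peak at the start of a partner counts for both genes, which can raise the shares above. How much it raised them was not tested. A peak shared in this way cannot be assigned to one gene of the pair from these lists.

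The closest starts were 359 bp apart between Enkur and Thnsl1, which encodes a threonine synthase-like protein. They were 183 bp apart between Nme7 and Blzf1, which encodes a golgin of the Golgi apparatus. Spaca9 and Ak8, an adenylate kinase of cilia, started 437 bp apart. Ribc2 and Smc1b, the cohesin subunit specific to meiosis, started 114 bp apart. The summit was nearer to the inner protein gene in 3 pairs, with Thnsl1 352 bp, Blzf1 104 bp and Smc1b 126 bp away. At the Spaca9 pair it was nearer to the partner, only 16 bp upstream of Ak8. The summit lay between the closest starts at Enkur, Nme7 and Spaca9 and just past the Ribc2 start. Among the 146 pairs of divergent coding genes that shared a combined promoter peak, it lay between the closest starts in 34.9%.

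X-boxes within 3 mismatches of the palindrome were found at the combined summits of Enkur and Nme7 only, that is 2 of the 4 genes. In windows of 200 bp such a match was present at 75.4% of all combined summits, at 58.9% of the combined promoter summits and around 2.5% of the 5′-most starts of protein-coding genes. Both matches had 3 mismatches. Position 1 is the first base of the palindrome, read on the strand of the named gene, and the base of the palindrome is given before the position. The Enkur X-box at chr2:21205364-21205377 differed by G4T, A7T and G9A, and its middle was 2 bp from the summit. The Nme7 X-box at chr1:164307669-164307682 differed by T8G, G9A and C11T, and its middle was 82 bp from the summit, close to the upper end of the window. Both words covered an annotated start site of their gene. Each window held the arm GTTGCC once outside the X-box, with its middle 24 bp upstream of the summit at Enkur and 55 bp upstream at Nme7.
Enkur X-box: GTTTCCTTAGCAAC
Nme7 X-box: GTTGCCAGAGTAAC

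Other RFX-like words were seen in Ribc2 and Mns1, in a search added once the sequences had been read. At Ribc2 the best alignment to the palindrome at the summit had 4 mismatches. The summit lay within the arm GTTGCC, and GTTGC and GCAAC stood 3 bases apart, 1 base closer than in the palindrome, at chr15:85132065-85132077, ending directly before the first start. That spaced pair was present at 19.4% of all combined summits, at 10.3% of combined promoter summits and around 0.32% of 5′-most starts. Mns1 had no X-box, but its window held the arm once on each strand, with middles 67 bp upstream and 11 bp downstream of the nearest start. At least 1 arm was present at 69.1% of all combined summits, at 56.8% of combined promoter summits and around 8.48% of 5′-most starts.
Ribc2 spaced pair: GTTGCTTAGCAAC

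The Spaca9 summit window held none of these words. When the whole combined peak of 1111 bp was searched, an X-box with 2 mismatches, G9A and A13C, was found at chr2:28699742-28699755. An X-box with at most 3 mismatches was present somewhere in 76.7% of all combined peaks. Its middle was 21 bp upstream of the nearest Spaca9 start and 400 bp from the summit, at the opposite end of the interval between Spaca9 and Ak8. It was the closest match to the palindrome in the peaks of the 5 genes. The 200 bp around it, chr2:28699649-28699848 on the minus strand, are shown for comparison with the summit window above.
Spaca9 X-box window: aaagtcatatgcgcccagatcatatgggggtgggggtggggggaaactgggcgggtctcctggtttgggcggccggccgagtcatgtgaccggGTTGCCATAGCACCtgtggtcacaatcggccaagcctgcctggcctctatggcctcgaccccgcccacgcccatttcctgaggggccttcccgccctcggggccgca

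**Figure D4:**
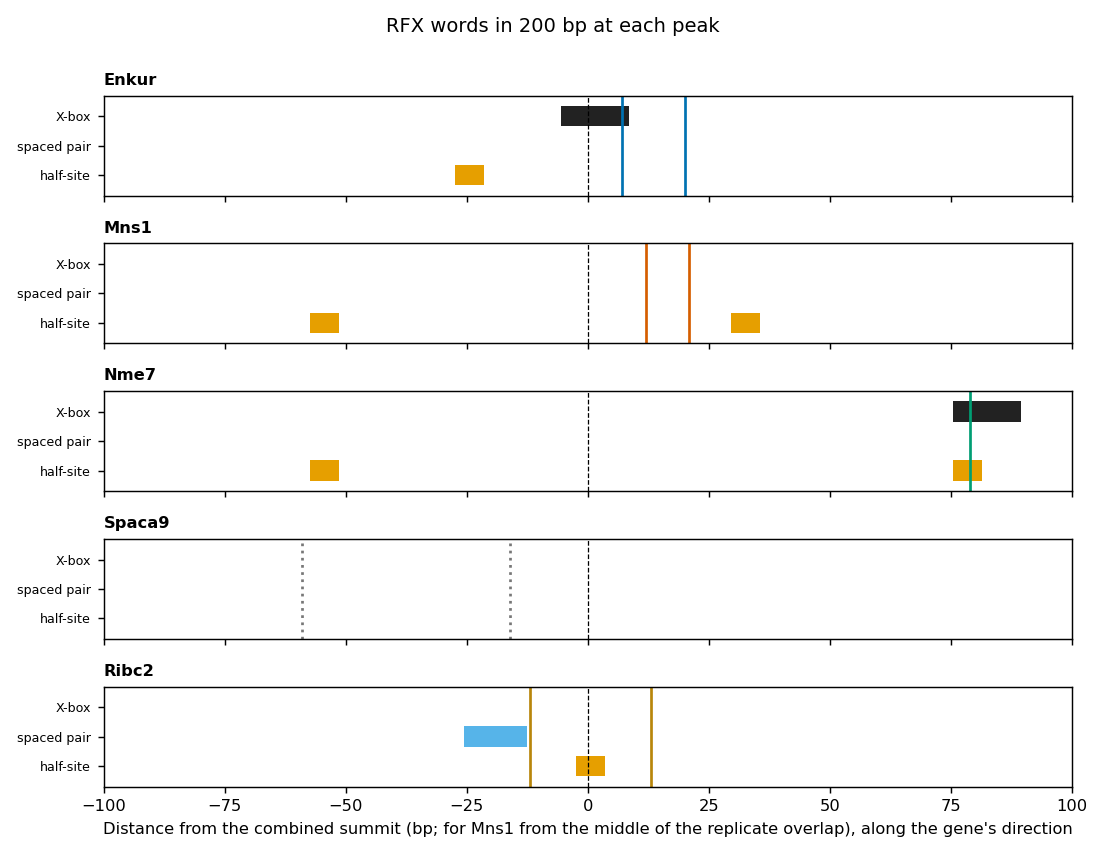
Position of X-boxes (black), spaced pairs (light blue) and X-box arms (orange, labelled half-site) in the 200 bp of each printed summit window, in bp from its middle along the direction of the gene; coloured lines are start sites of the gene and dotted grey lines those of the partner. The Enkur X-box sits on the summit, that of Nme7 82 bp downstream of it, and the Spaca9 window holds no such word.

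The base composition of these windows also differed. They held 43.5% G+C at Enkur, 60% at Mns1, Nme7 and Ribc2, and 62.5% at Spaca9, against 58.8% ± 7.57 (SD, n = 1003) over the combined promoter peaks. Enkur was thus more than 1 SD below the mean, and the other 4 were within 1 SD of it.

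Away from the promoters, the nearest replicate peaks scored at most 17.4, except for the replicate 1 peak at Tex9 (64.6), which is described with its combined peak. Of these 10 peaks, 7 were listed in 1 animal only. The next peak lay 36 kb downstream of Enkur in replicate 1 (score 12.6) and 21 kb upstream in replicate 2 (score 5.95). It lay 2.85 kb upstream of Spaca9 in replicate 1, in an Ak8 intron (score 12.2), and 58.5 kb downstream in replicate 2 (score 3.2), near Tsc1. At Ribc2 these distances were 16 kb downstream (score 17.4) and 174 kb upstream (score 8.1), the latter met by a peak of replicate 1 as well. Within Nme7, the nearest intronic peak of replicate 1 scored 12.6, and that of replicate 2, which replicate 1 also met, scored 2.96. At Mns1, replicate 2 had a peak 5.35 kb upstream with a score of 6.03 that replicate 1 did not have.

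The nearest other combined peaks of Nme7, Mns1 and Spaca9 lay at or near starts of further genes. The combined peak nearest to Nme7 besides its own lay 28.5 kb upstream, ranked 25 with a fold of 34.8, and had its summit 45 bp from the start of Ccdc181, which encodes a protein of cilia and sperm tails. The combined peak nearest to Mns1, 53.4 kb downstream, ranked 1382 with a fold of 8.96, and its summit was 4 bp from a start of Tex9, a gene named for expression in testis. That nearest to Spaca9 lay 117 kb downstream, with its summit in an intron of Gtf3c5 and 300 bp from a start of that gene. All 3 peaks were met by both replicates. For Enkur and Ribc2 the nearest other combined peak was 87.4 and 362 kb away, and the nearest coding starts, of Gpr158 and 7530416G11Rik, were 74757 and 8967 bp from its summit.

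Promoter peaks were also common at other genes for doublet microtubule inner proteins. Of 20 further genes listed, 19 were found in the annotation under a current or older symbol, and Cfap141 was not. The combined list had a promoter peak at 13 of the 19 (68.4%), and both replicates had one at 14. Over all protein-coding genes these shares were 5.26% and 9.05%. The 13 peaks ranked from 72 to 2715, with a median −log10 p of 112 and folds from 10.9 to 42. The summit was within 50 bp of a start at 11 of them, beside a median distance of 70 bp over the 1153 genes bound in the combined list. All 13 scored higher in replicate 1 than in replicate 2, as did Enkur, Nme7 and Ribc2, whereas Spaca9 and Mns1 scored higher in replicate 2. As given above, 87.8% of all genes with a promoter peak in both animals scored higher in replicate 1.

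The strongest of these peaks was at Cfap161, with rank 72 and a fold of 42. Cfap20, a protein of the junction between the tubules of a doublet, followed at rank 123 with a fold of 15.7. Cfap52 ranked 449 and Cfap276 558, the latter with its summit 835 bp upstream of the nearest Cfap276 start, toward the divergent gene 5330417C22Rik, which starts 998 bp from it. Cfap95, Cfap53, Cfap45, Efcab6 and Cfap126 ranked from 721 to 2432. Of the tektins, coiled-coil filament proteins of the doublet, 4 of 5 had a combined promoter peak, with Tekt1 at rank 535, Tekt4 at 859, Tekt3 at 2385 and Tekt2 at 2715. Tekt5 had none in any list. Cfap107 resembled Mns1 in having promoter peaks in both animals (scores 25.2 and 11.3) and none in the combined list. Cfap210 and Efhc2 had one only in replicate 1, and Pierce1 and Ribc1 only in replicate 2. Divergent partners were found for 4 of the 19 genes, beside 18.3% of all protein-coding genes, so this count was ordinary. Of the 13 with a combined peak, 11 had none, whereas 36.5% of all genes with a combined promoter peak had a partner.

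**Figure D5:**
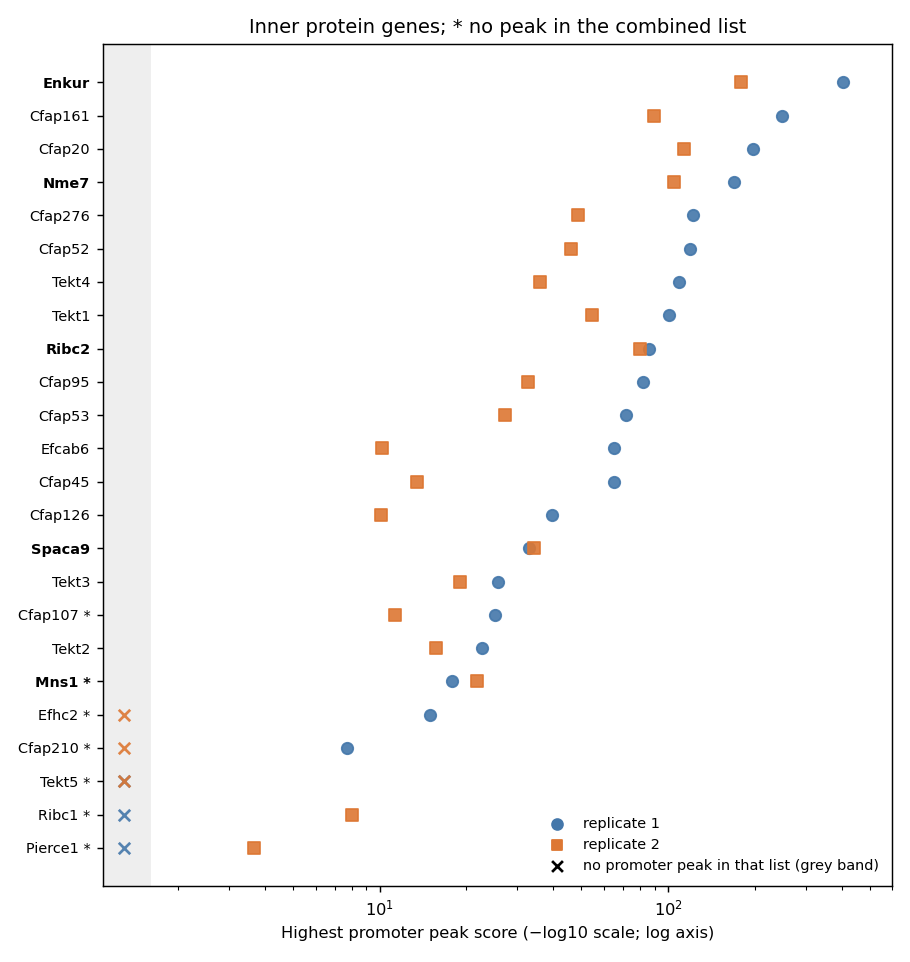
Highest promoter peak score (−log10 scale, log axis) in replicate 1 (circles) and replicate 2 (squares) for the 5 genes, in bold, and 19 other inner protein genes, ordered by replicate 1; crosses in the grey band mark genes with no promoter peak in that list, and asterisks those with none in the combined list. Enkur has the highest score in both replicates, and Mns1 has the lowest replicate 1 score of the genes with a peak in both, but not the lowest replicate 2 score. The 2 scores of a gene are not on a common scale.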

How the data were processed

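The authors immunoprecipitated RFX2 from chromatin in 2 replicates and sequenced it beside an input for each. Per the study's supplementary methods and the processing notes, reads were mapped to GRCm38 (Ensembl release 70) with Bowtie 0.12.7, ambiguous reads were discarded, reads of human origin were removed from the second run of replicate 2, and peaks were called with MACS2 2.0.10.20130520 against input. The sources describe more than one call and a filter on reproducibility, and do not state which was deposited.

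Each peak of the deposited replicate lists carries a single −log10 value, of p or of q, which is not stated. For every peak the deposited 10-column list holds −log10 p, −log10 q, the summit, a fold (ratio) against the local background, and a whole-number score that was not used here. It is attached to replicate 2, but its peaks are named "all" and numbered up to 29491. It was therefore taken to be called on the pooled reads of both animals, which rests on these names alone, and is termed the combined list. It then shares reads with both replicates and is no independent replication of them. It stops at a −log10 p of 43.2. The list holds 2726 peaks, far fewer than its numbering, so most numbered peaks were left out. The study's supplementary methods report a count of peaks passing its filter on reproducibility that is close to, but not equal to, 2726. Whether that filter removed the other numbered peaks is not stated, so a missing peak may have been called and then dropped.

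Annotation was GENCODE mouse release 21 and sequence the RefSeq copy of GRCm38.p6, so start sites can differ from those of the authors. No peak ended beyond a chromosome, and all 6 RefSeq promoter sequences of the 5 genes matched the genome. Overlaps were computed with pandas 2.3.3 and pysam 0.24.0 in Python 3.11.15 and checked on planted peaks and X-boxes. Summits were taken from the combined list and centres from the replicate lists. The X-box was searched with at most 3 mismatches. Groups and replicate numbers came from the sample titles. The text describes the 5 genes, their divergent partners, the genes nearest to other peaks and a list of further inner protein genes, some of which are not reported here. These genes, lists and settings were chosen with earlier results of these data known. No test was made, since shares over all genes serve as the background.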

Additional observations from a re-analysis of the deposited data

How the results depend on the processing

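No paired analysis was possible because the peak lists give no value per peak for the inputs and no comparison between groups was made. Without replicate 1 or replicate 2 the number of the 5 genes with a promoter peak stayed at 5, that of the other inner protein genes was 16 in either case against 14 in both, and the share of all genes ran from 11.3% to 14%. The counts of the 5 genes with a promoter peak and of those with a partner were the same under all alternatives, except that 3 rather than 4 had a combined peak in the top 50% of that list, where Spaca9 dropped out. In that top 50%, 9 of the other inner protein genes had a combined promoter peak. The shares of all genes moved more. In both replicates the share was 7.94% with a promoter of 500 bp upstream to 50 bp downstream, 7.07% with the 5′-most TSS, 8.67% with the peak centre in the promoter, 8.06% in the top 50% of each list and 4.74% over all annotated genes. In the same order it was 11.2%, 9.72%, 13.2%, 12% and 8.14% in replicate 1, and 9.31%, 8.27%, 10.8%, 9.15% and 6.16% in replicate 2. In the combined list it was 4.48% with the 5′-most TSS, 3.42% in the top 50% and 2.64% over all annotated genes. The number of genes with an X-box at the combined summit was 0 with at most 2 mismatches. With at most 4 it was 3, Ribc2 being added. In the whole peak it was also 3, Spaca9 being added by a match 400 bp from its summit. In searches added after the data were seen, 3 genes had the arm GTTGCC at the summit. In these searches 1 gene had GTTGC and GCAAC 3 to 5 bases apart. The share of combined peaks with an X-box was 55.8% with at most 2 mismatches, 86.9% with at most 4, 52.9% around the peak centre and 76.7% in the whole peak. Measured from the peak centre, the distance from the TSS was 47 bp at Enkur, 84 bp at Ribc2 and −270 bp at Spaca9, where it was −465 bp from the 5′-most TSS of the protein-coding transcripts. By fold enrichment the ranks were 249 for Enkur, 561 for Nme7, 2284 for Ribc2 and 2129 for Spaca9. The causes of these shifts were not tested. The use of only 2 animals, unknown read depth and lists that end at a threshold limit all of these values: a missing peak shows only that none was listed.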

Other observations

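Ribc1, the X-linked paralogue of Ribc2, also lies head to head with a cohesin gene. Its closest start was 133 bp from that of Smc1a, against 114 bp between Ribc2 and Smc1b. The promoter of Ribc1 had a peak only in replicate 2, with a score of 8, whereas the promoter of Ribc2 had peaks in both animals and in the combined list. The pair was singled out after its values were seen, and the difference was not tested.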
